A study of Mus musculus with 9 samples.

Results

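The 3 control libraries of a mouse oocyte study were taken on their own here, to describe which transcripts an untreated egg held, which gene families were missing and how far the libraries differed. They are 3 of the 9 libraries of the study, chosen by their treatment label, and all 24736 genes of the tables were ranked in them. Control mice were ICR females, an outbred strain, labelled 4 to 5 weeks of age, and no stress was applied to them. They received 7.5 IU of PMSG and 7.5 IU of hCG, and eggs were collected from the oviduct 16 hours after hCG and freed of cumulus cells with hyaluronidase. Each library was made from 15 oocytes of 1 mouse. The other 6 libraries came from mice under chronic unpredictable mild stress, without or with the herbal decoction KYZY, and entered only the scaling of the totals and the count of Rec8.

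An oocyte at metaphase of the second meiotic division is arrested with its chromosomes on the spindle and waits for sperm. It no longer transcribes, so its RNA is a store made during growth, which is translated and removed on a schedule by changes in poly(A) tails. The store is known for secreted growth factors, zona proteins, a maternal protein complex under the cell membrane, and cell cycle regulators. The cDNA kit, SMART-Seq v4, primes on poly(A) tails, so a level below is that of RNA with a tail the primer could use. The protocol keeps neither strand nor molecular identifiers.

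Levels are given in CPM, a gene's counts per 1000000 counts of its library, after the totals were adjusted with edgeR's TMM factors (trimmed mean of M values). Where 3 values follow each other they are those of control 1, control 2 and control 3, in that order. Total counts were 68826061, 82214112 and 72154974. A read pair was taken as about 4 counts, from an excess of values of 4, since the tables name no unit. On that reading 1 CPM stood for 15.1, 26.2 and 19.2 pairs, with a counting error of 25.7%, 19.5% and 22.8%. The floor for a count of 0 was 3 pairs or 12 counts, which is 0.198, 0.115 and 0.156 CPM. It covers counting error only, since amplified copies are not independent molecules.

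A gene was called expressed at 1 CPM or more in all 3 libraries. By this rule 8726 genes (35.3%) were expressed, with a median level of 14.5 CPM, 10376 (41.9%) were at or under the floor in all 3 libraries, and 5634 (22.8%) were neither. Of the genes at or under the floor, 7865 had a count of 0 in every library. The counts were concentrated: 18 genes held 25% of them, 133 held 50%, 665 held 75% and 2058 held 90%. At 100 CPM or more in all 3 libraries there were 1008 genes, at 1000 or more 93, and at 10000 or more 4. Protein-coding genes made up 8528 of the expressed genes, 41.3% of the 20625 in the tables, and long non-coding RNAs 126, 5.50% of 2289. Control 3 had the most genes at 1 CPM or more, 10113 against 9062 in control 1 and 9515 in control 2.

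Rn45s, the entry for the ribosomal RNA precursor, took the most counts, 7.62%, 10.6% and 7.39% of the library totals (8.53 ± 1.79%, SD, n = 3). Which part of the precursor these reads came from, and how that RNA was primed, was not tested. The 10 highest genes took 20.3%, 22.5% and 19.1%, and 13.9% on average once Rn45s was left out. Below Rn45s stood Zbed3, which encodes a member of the subcortical maternal complex, at 49877, 36099 and 39244 CPM. Spin1, a chromatin reader abundant in eggs, followed at 16363, 10542 and 16372 CPM. Gdf9, the growth factor that signals to cumulus cells, was at 15708, 10457 and 11444 CPM. H1foo, the oocyte linker histone, was at 13175, 9163 and 9306 CPM. In each of these 4 genes control 2 was the lowest library with TMM, whereas on plain library totals, without TMM, Zbed3, Gdf9 and H1foo were lowest in control 3. No library departed from the mean of the 3 by more than 2-fold.

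**Figure D1:**
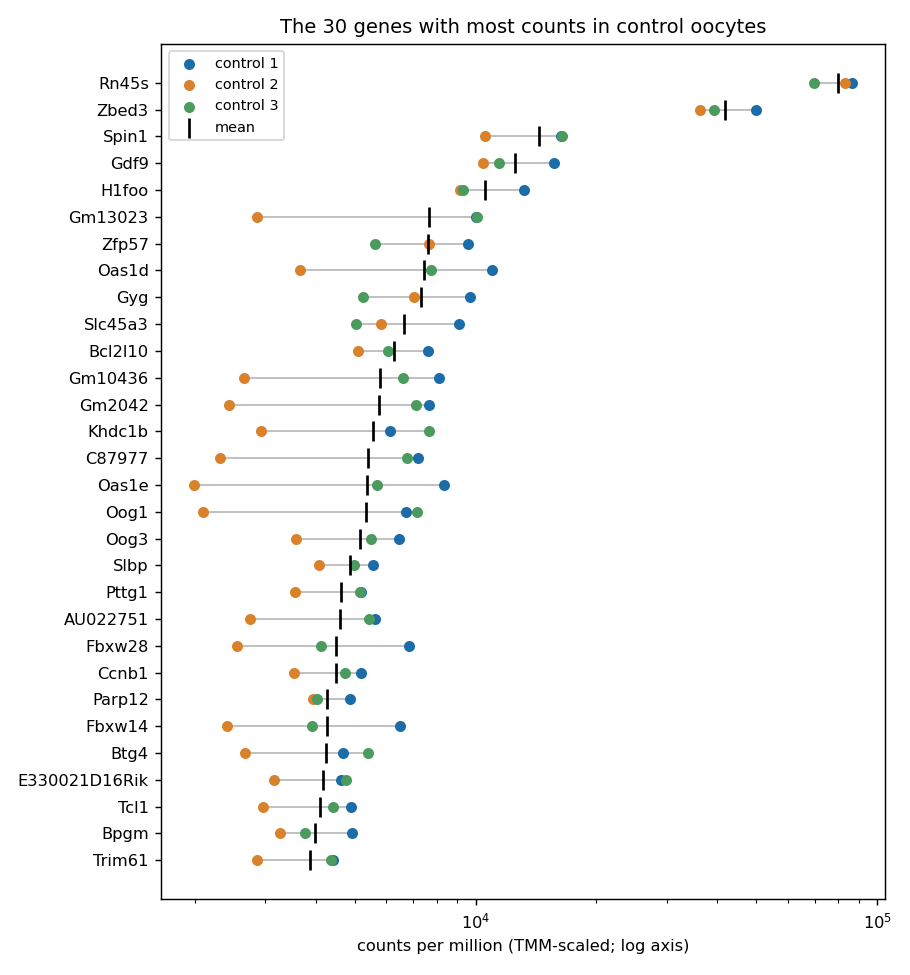
The 30 genes with the highest mean CPM in control oocytes, from Rn45s at the top, with each dot a library (control 1, 2 and 3), the black tick their mean and the grey line their range, on a log axis of TMM-scaled CPM. Control 2 is the lowest dot for 26 of the 30 genes (19 on plain totals), and far below the others for Gm13023, Oas1e, Oog1 and Gm2042.

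The next genes on the list bring together several known jobs of the egg. Zfp57, a zinc finger protein that guards methylation at imprinted loci, was at 9589, 7645 and 5622 CPM. Gyg, glycogenin, which primes glycogen synthesis, was at 9676, 7040.1 and 5247 CPM, and Slc45a3, a sugar transporter of the solute carrier class, at 9086, 5822 and 5049.9 CPM. Bcl2l10, a BCL2 family member made in oocytes, was at 7628, 5112 and 6061 CPM. Slbp, the protein that binds the stem-loop of histone mRNA, was at 5553, 4076 and 4983 CPM. Zfp57, Gyg and Slc45a3 were lowest in control 3 on either scale. Bcl2l10 and Slbp were lowest in control 2 with TMM, but on plain totals Bcl2l10 was lowest in control 3 and Slbp in control 1.

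Cell cycle genes and genes of RNA turnover also reached the first 30. Pttg1, securin, which holds separase in check, was at 5192, 3549 and 5171 CPM, and Ccnb1, the cyclin B1 subunit of maturation promoting factor, at 5190.3, 3527 and 4739 CPM. Btg4, the adaptor that recruits the CCR4-NOT deadenylase to maternal mRNA, was at 4667, 2675 and 5408 CPM. Tcl1, a coactivator of the kinase AKT, was at 4903, 2959 and 4428 CPM, and Bpgm, bisphosphoglycerate mutase, at 4918, 3255 and 3759 CPM. Parp12, an ADP-ribosyltransferase, was the most even of the 30 with TMM, with an SD of 0.17 on the log2 scale, at 4859.5, 3934 and 4034 CPM. Trim61, a tripartite motif gene, was at 4415, 2855 and 4379.9 CPM, and Khdc1b, a KH-domain gene, at 6123, 2925 and 7664 CPM. AU022751 and E330021D16Rik, whose roles are not described here, were at 5616, 2748 and 5437 CPM and at 4636, 3152 and 4767 CPM.

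The rest of the 30 belong to multigene families whose copies lie side by side. Oas1d and Oas1e, oocyte members of the oligoadenylate synthetase family, were at 11001, 3667 and 7727 CPM and at 8372, 1997 and 5702 CPM. Fbxw28 and Fbxw14, F-box proteins with WD40 repeats, were at 6812, 2553 and 4125 CPM and at 6482, 2404 and 3908 CPM. Oog1 and Oog3, leucine-rich oogenesins, were at 6714, 2101 and 7169 CPM and at 6444, 3571 and 5479.5 CPM. Gm13023, C87977, Gm10436 and Gm2042 lie beside them on chromosomes 4 and 12, with means of 7661 ± 4154, 5413 ± 2692, 5785 ± 2814 and 5739 ± 2874 CPM (SD, n = 3). All 10 were lowest in control 2 on either scale. Reads of near-identical copies can be split between them by the counting, so the level of a single copy is uncertain and the sum over a cluster is the safer value.

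The order itself was much the same in each library. Of the 30 genes, 23 were among the first 30 of every library and 37 genes were among the first 30 of any.

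Promoters of a few of these genes are shown because the first genes of the list differed from the other expressed genes in the letters counted below. Windows run from 250 bases before to 50 after a RefSeq start on GRCm38.p6, with 1 window for each gene shown. That start need not be the outermost of the gene. The Btg4 window lies inside the span of the gene (51102147 to 51119924), as do those of Spin1, Zfp57, E330021D16Rik and Pttg1. Btg4, Spin1 and E330021D16Rik are among the genes with a CACCTG or CAGGTG match. Motif and CpG counts depend on the start used. Capitals mark CACCTG or its reverse complement CAGGTG, a sequence of the E-box type CANNTG. Zbed3 (chr13:95323355-95323654, plus strand), Btg4 (chr9:51115751-51116050, plus strand) and Tcl1 (chr12:105222688-105222987, minus strand) hold it once, and Ccnb1 (chr13:100786437-100786736, minus strand), a cell cycle gene, is shown beside them with no match. Oog1 (chr12:87602415-87602714, plus strand) and Gm2042 (chr12:87954230-87954529, plus strand) are shown as near copies. They are the same at 299 of 300 positions, and the difference is G46A, counted from 1 at the 5′ end of the Oog1 window, with the Oog1 base first.
Zbed3: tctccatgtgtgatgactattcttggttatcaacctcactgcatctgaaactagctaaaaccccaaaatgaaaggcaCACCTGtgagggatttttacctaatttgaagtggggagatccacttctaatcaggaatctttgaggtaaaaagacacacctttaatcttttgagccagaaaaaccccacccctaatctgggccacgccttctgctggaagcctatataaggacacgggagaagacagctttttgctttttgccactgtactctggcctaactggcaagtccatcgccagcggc
Btg4: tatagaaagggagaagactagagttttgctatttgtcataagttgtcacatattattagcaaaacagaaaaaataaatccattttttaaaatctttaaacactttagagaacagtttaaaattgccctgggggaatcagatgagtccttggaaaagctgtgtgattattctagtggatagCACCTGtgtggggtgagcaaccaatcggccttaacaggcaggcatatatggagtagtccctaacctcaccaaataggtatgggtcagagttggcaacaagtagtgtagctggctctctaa
Tcl1: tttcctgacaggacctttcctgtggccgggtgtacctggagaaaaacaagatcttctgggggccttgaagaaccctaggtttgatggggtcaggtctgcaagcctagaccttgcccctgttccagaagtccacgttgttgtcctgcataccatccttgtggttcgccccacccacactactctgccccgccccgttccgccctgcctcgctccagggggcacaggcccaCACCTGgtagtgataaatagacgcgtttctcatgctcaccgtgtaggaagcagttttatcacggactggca
Ccnb1: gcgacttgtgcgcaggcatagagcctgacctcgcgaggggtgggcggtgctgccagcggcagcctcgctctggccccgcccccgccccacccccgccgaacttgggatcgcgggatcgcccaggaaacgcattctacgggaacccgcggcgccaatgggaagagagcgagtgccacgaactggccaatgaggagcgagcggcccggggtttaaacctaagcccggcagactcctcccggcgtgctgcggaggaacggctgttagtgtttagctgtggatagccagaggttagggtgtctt
Oog1: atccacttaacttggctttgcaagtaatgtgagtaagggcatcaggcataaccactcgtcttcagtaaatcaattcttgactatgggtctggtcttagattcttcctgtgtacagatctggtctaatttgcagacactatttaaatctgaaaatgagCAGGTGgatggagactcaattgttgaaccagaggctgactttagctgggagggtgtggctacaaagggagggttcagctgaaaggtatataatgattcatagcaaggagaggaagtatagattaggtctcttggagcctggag
Gm2042: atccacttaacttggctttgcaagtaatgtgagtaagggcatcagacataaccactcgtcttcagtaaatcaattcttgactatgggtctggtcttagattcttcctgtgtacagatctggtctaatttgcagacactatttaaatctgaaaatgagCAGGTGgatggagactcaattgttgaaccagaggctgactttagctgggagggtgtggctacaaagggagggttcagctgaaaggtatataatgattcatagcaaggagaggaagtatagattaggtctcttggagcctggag

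Of the 30 highest genes, 20 matched the promoter table. CACCTG or CAGGTG was in 10 of the 20 (50%) and in 23 of 77 promoters of the first 100 genes (29.9%). The 77 include the 20, so these shares are nested and form no gradient with rank. The share was 19.4% of 727 at ranks 101 to 1000 and 18.1% of 6138 of the other expressed genes. It was 20.5% of 6799 genes at or under the floor, and 20% of all 27025 promoters in the table. Zbed3, Spin1, Gyg, Gm2042, Khdc1b, Oog1, Btg4, E330021D16Rik, Tcl1 and Trim61 were the 10. Oog1 and Gm2042 count as separate promoters here although they are nearly the same sequence. The wider CANNTG, which contains these letters, was in 15 of the 20 (75%), in 63.3% at ranks 101 to 1000, in 62.3% of the other expressed genes, in 75.5% of the genes at the floor and in 72.1% of all promoters. TAATTG, also searched on both strands, was in 3 of the 20 (15%), in 5.02% of the other expressed genes and in 9.91% of the genes at the floor.

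The first genes also differed from the other expressed genes in CpG content. The median number of CpG was 6 in the 20 promoters of the first 30 genes and 15 in the first 100, which include those 20. It was 24 at ranks 101 to 1000 and 22 in the other expressed genes, against 4 in genes at or under the floor. In the 6 windows above, Zbed3 has 4 CpG, Btg4, Oog1 and Gm2042 have 1 each, Tcl1 has 11 and Ccnb1 has 29. GGGCGG, searched on both strands, was in 7 of the 20 (35%), in 67.0% at ranks 101 to 1000, in 66.0% of the other expressed genes and in 22.4% of the genes at the floor. TATAAA was in 1 of the 20 (5%), in 6.21% of the other expressed genes and in 21.4% of the genes at the floor. CACGTG was in 1 of the 20 (5%) and in 10.7% of the other expressed genes, and CCAAT in 6 of the 20 (30%) and in 40.2%. A match describes the letters of the window and names no bound factor.

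Counts grow with transcript length, so levels of different genes were compared per kilobase of the longest GENCODE M21 transcript. A length was found for 8688 (99.6%) of the expressed genes, though not for Rn45s, and the median expressed gene stood at 4.58 CPM per kb. Zbed3 (chromosome 13, 95323605 to 95337842) was the highest at 21460.2 ± 3712 CPM per kb (SD, n = 3), followed by H1foo (chromosome 6, 115944931 to 115950242) at 9401 ± 2029, Gdf9 (chromosome 11, 53430774 to 53437904) at 6992 ± 1556 and Bcl2l10 (chromosome 9, 75347758 to 75351640) at 5137 ± 1041. Zbed3 lay above H1foo by more than the spread of either gene. The means of H1foo and Gdf9, and of Gdf9 and Bcl2l10, were closer than their SDs summed. Within every library, though, H1foo lay above Gdf9 and Gdf9 above Bcl2l10. Dppa3, known as Stella, which protects the maternal genome from demethylation, ranked 41 by CPM and stood at 3503 ± 1407 CPM per kb, rank 8 of the list per kilobase. Spin1, which ranked 3 by CPM, has a transcript of 4434 nucleotides and stood at 3253 ± 759 CPM per kb. The per-kilobase order shared 26 of its first 30 genes with the order by CPM.

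Of the 273 measured genes on 19 lists of egg functions and comparison groups, 216 (79.1%) were expressed, against 35.3% of all genes. All 8 genes of the subcortical maternal complex were expressed, with a median of 1383 CPM. Its members spanned Zbed3 at the top and Khdc3, at 14, 11.4 and 8.25 CPM, at the bottom. Padi6, the peptidylarginine deiminase of the cytoplasmic lattices, was at 4085, 2658 and 2479 CPM, Ooep at 2716, 2096 and 2145 CPM, Nlrp5 at 494, 298 and 371 CPM and Tle6 at 683, 369 and 289.6 CPM. Nlrp2 was at 35.7, 31.7 and 23.9 CPM. Per kilobase Nlrp5 stood at 110.5 ± 28.1 CPM per kb, Nlrp2 at 8.93 ± 1.77 and Khdc3 at 6.68 ± 1.71, so members of the complex differed widely in level in these libraries.

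Among secreted factors, 7 of 7 were expressed. Bmp15, the partner of Gdf9, was at 4055, 2814 and 2089.8 CPM, and the oocyte-secreted proteins Oosp1 and Oosp3 were at 1926, 1266 and 2025 CPM and at 1511, 1152 and 1930.4 CPM. Bmp6 and Fgf8, signals to granulosa cells, were low, at 7.79, 9.80 and 6.56 CPM and at 11.9, 9.49 and 5.68 CPM. Of the egg coat, Zp1 was at 695, 389 and 225 CPM, Zp2 at 365, 264 and 188 CPM and Zp3 at 135, 84.9 and 60.4 CPM, each lowest in control 3 on either scale. Per kilobase the means were 222 ± 122, 122 ± 39.8 and 70.7 ± 28.9 CPM per kb in the order Zp1, Zp2 and Zp3. Astl, ovastacin, the protease that hardens the coat after fertilization, was at 413, 236 and 302 CPM. On the egg surface Izumo1r, the receptor JUNO for sperm, was at 89.8, 69.5 and 43.6 CPM, and Cd9, a tetraspanin needed for fusion, was only just above the threshold at 1.55, 1.60 and 3.18 CPM.

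The listed genes of the cell cycle engine were all expressed, 23 of 23, with a median of 147 CPM. Mos, the kinase upstream of MAP kinase in the arrest, was at 664, 411 and 558 CPM, and its target Map2k1 at 965, 649 and 769 CPM. Fbxo43, or Emi2, which holds the anaphase-promoting complex off, was at 98.6, 86.6 and 159.6 CPM, and Wee2, an inhibitory kinase of CDK1, at 531, 356 and 568 CPM. Ccnb1 and its kinase were far apart: Cdk1 was the lowest of the 23 at 5.11, 4.71 and 3.78 CPM. Per kilobase the means were 1802 ± 346 CPM per kb for Ccnb1 and 1.04 ± 0.156 for Cdk1. The spindle checkpoint gene Bub1b was at 1371, 862 and 1263 CPM and Mad2l1 at 480.1, 290.1 and 559.8 CPM. Of the Aurora kinases, which correct chromosome attachment and build the spindle, Aurka was at 215, 116 and 98.0 CPM, Aurkb at 30.9, 28.5 and 14.8 CPM and Aurkc, the germ cell member, at 76.4, 65.6 and 96.2 CPM. Aurka and Aurkb were lowest in control 3, where Aurkc was highest, on either scale.

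**Figure D2:**
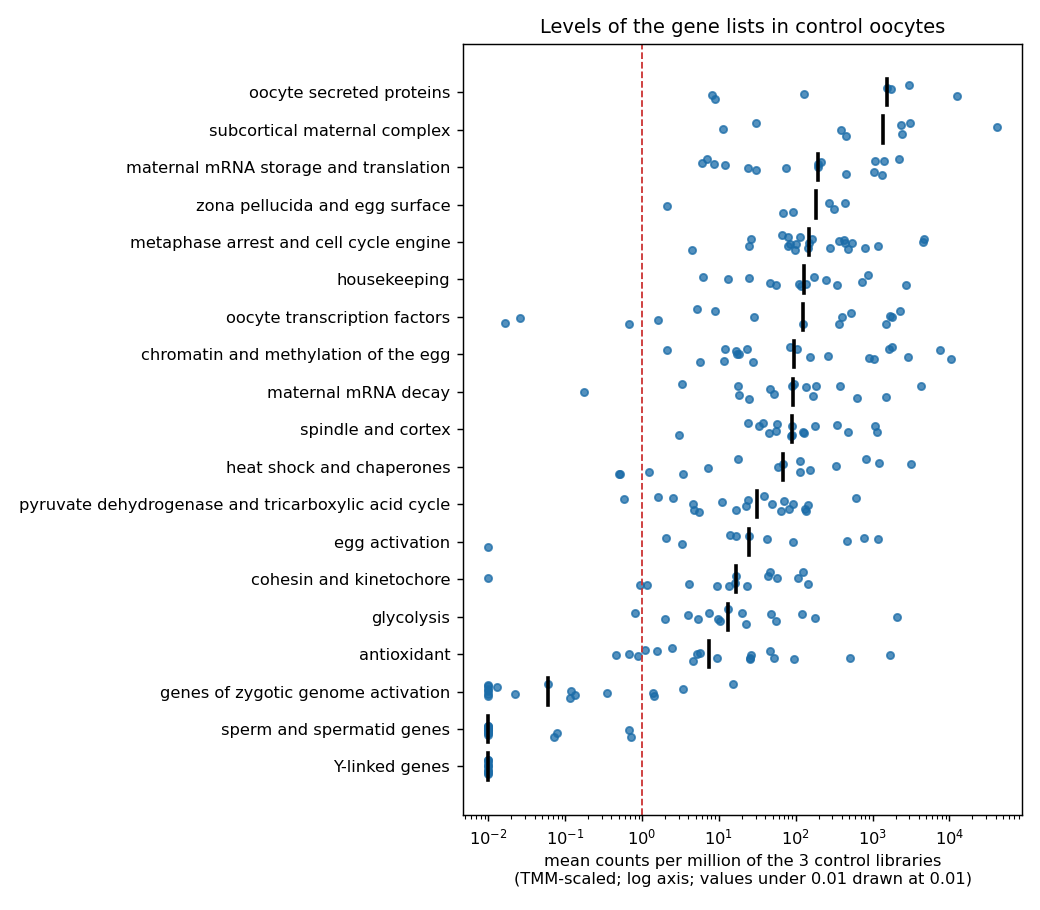
Mean CPM of each gene (dots) on the 19 lists in the 3 control libraries, on a log axis with values under 0.01 drawn at 0.01, with the median of each list as a black bar and 1 CPM as a dashed line. Oocyte secreted proteins and the subcortical maternal complex lie highest, and the lists for zygotic genome activation, sperm and the Y chromosome lie below 1 CPM apart from Tcstv1, Tcstv3, Zscan4d and Eif1a.

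Storage and decay of maternal mRNA were both represented. For storage 16 of 16 genes were expressed: Zar1 was at 2470.0, 1252 and 2976 CPM, Dazl at 1731, 995 and 1309 CPM, Cpeb1, which controls cytoplasmic polyadenylation, at 602, 403 and 354 CPM and the egg cap-binding protein gene Eif4e1b at 1442, 707 and 976 CPM. Ybx2, or MSY2, known as an abundant RNA-binding protein of the oocyte, was at 10.1, 8.41 and 7.49 CPM. Ddx4, the germ cell helicase VASA, was at 15.8, 18.2 and 189 CPM, with control 3 apart from the other two. For decay 15 of 16 genes were expressed, among them the deadenylase gene Cnot7 at 561, 372 and 957 CPM, the decapping gene Dcp1a at 2073, 1269 and 1221 CPM and Dicer1 at 443, 336 and 341 CPM. Zfp36l2, which binds AU-rich elements, was at 4.43, 3.16 and 2.40 CPM.

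Chromatin genes were expressed in 20 of 20 cases. Beside H1foo, Zfp57 and Dppa3, the maintenance methyltransferase Dnmt1 was at 1162, 769.6 and 756 CPM and its cofactor Uhrf1 at 2203, 1451 and 1234 CPM. Dnmt3a, the methyltransferase of the growing oocyte, was at 322, 246 and 218 CPM and its partner Dnmt3l at 11.8, 13.3 and 10.1 CPM. Tet3, the dioxygenase that acts on paternal DNA in the zygote, was at 1513, 782 and 886 CPM. Of the 2 genes for histone variant H3.3, H3f3b was at 2175, 1116 and 2109 CPM and H3f3a at 204, 62.9 and 187 CPM. Npm2, nucleoplasmin, was at 86.5, 90.1 and 138 CPM.

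Of the oocyte transcription factors 12 of 15 were expressed. Foxo3 was at 2238, 1351 and 1421 CPM, Nobox at 726, 448 and 377 CPM and Lhx8 at 537, 338 and 325 CPM. The homeobox genes Obox1, Obox2 and Obox5 were at 1871, 727 and 1869 CPM, at 2151, 779.8 and 2472 CPM and at 2792, 913 and 3086 CPM. Figla, which acts early in follicle formation, was at 1.5, 1.80 and 1.51 CPM, and Sohlh1, a factor of the primordial follicle stage, was above 0 only in control 1, at 0.0496 CPM, under the floor. Obox6 was at 0 in controls 1 and 2 and under the floor in control 3.

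Cohesin and kinetochore genes were lower, with 12 of 15 expressed and a median of 16.8 CPM. Rec8, the meiotic kleisin that joins sister chromatids, had a count of 0 in all 3 libraries. Its highest count in any of the 9 libraries of the study was 4, which was taken as about a read pair. The other meiotic subunits were at 8.93, 6.53 and 13.2 CPM for Smc1b and 0.562, 2.02 and 0.911 CPM for Stag3. The general subunit Smc3 was at 154, 57.0 and 225 CPM and Rad21 at 13.4, 14.2 and 13.5 CPM. Espl1, separase, was among the most even genes at 122, 127 and 119 CPM. Among spindle genes, 17 of 17 were expressed, with Tubb4b at 1829, 614 and 781 CPM, Mapre1 at 1308, 832 and 1278 CPM, Tacc3 at 619.9, 397 and 442 CPM and the actin nucleator Fmn2 at 56.3, 26.6 and 50.2 CPM.

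Of the genes of egg activation, 10 of 11 were expressed. Itpr1, the calcium release channel, was at 27.1, 21.5 and 26.5 CPM, Camk2g, the kinase that answers calcium, at 935, 715 and 668 CPM and Slc39a6, a zinc importer, at 633, 413 and 363 CPM. Plcz1, the sperm factor that starts the calcium waves, was at 0 in every library. The sperm list as a whole had 0 of 15 genes expressed, and its summed level was 0.893, 1.61 and 2.11 CPM. All 9 Y-linked genes were at 0. Of 17 genes of zygotic genome activation 2 were expressed, Tcstv1 at 18.6, 11.9 and 16.0 CPM and Tcstv3 at 4.60, 2.92 and 2.66 CPM. Zscan4d was at 0.562, 1.57 and 2.23 CPM, and Dux was under the floor in all 3 libraries.

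Metabolic lists held both high and low members. Of the lactate dehydrogenases Ldhb was at 2604, 1289.8 and 2348 CPM, whereas Ldha was listed at 0 in control 1 and was at 0.525 and 22.0 CPM in controls 2 and 3. Glycolysis had a median of 13.1 CPM with 13 of 15 genes expressed, and Aldoa was at 234, 132 and 175 CPM. Hk1, a hexokinase, was at 0.165, 0 and 2.24 CPM and did not reach the threshold in controls 1 and 2. In the pyruvate dehydrogenase and tricarboxylic acid cycle list, 18 of 20 genes were expressed with a median of 31.2 CPM, with Cs, citrate synthase, at 794, 510.1 and 536 CPM, and Idh2 and Sdhb missing the threshold. Among antioxidant genes 13 of 18 were expressed, Prdx1 at 1973, 1259 and 1863 CPM and Prdx2 at 642, 273 and 591 CPM, while catalase, Cat, was at 0.231, 0.201 and 1.60 CPM. Of the heat shock genes Hsp90aa1 was at 4151, 2065 and 3199 CPM, and the inducible Hspa1a and Hspa1b were under 1 CPM in every library, at 0.380, 0.401 and 0.729 CPM and at 0.479, 0.650 and 0.404 CPM.

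Genes used as housekeeping references were all expressed, 14 of 14, and were uneven, with a median SD of 0.85 on the log2 scale against 0.31 over all expressed genes. Actb was at 80.2, 67.5 and 205 CPM and Gapdh at 44.4, 32.8 and 86.7 CPM, both highest in control 3 on either scale. Ywhaz was at 4605, 1469 and 2172 CPM, highest in control 1 on either scale. Sdha, at 160.4, 106 and 148 CPM, and Hprt, at 260.3, 190.4 and 296 CPM, differed less.

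Few genes were expressed in families that work mainly in other cells. Over 35 families of this kind or of non-coding genes, 45 of 3553 genes were expressed (1.27%, and 2.97% without olfactory receptors and microRNA entries), against 35.3% of all genes. The share was not low in every family: GABA receptor subunits (26.3%), myosin heavy chains (21.4%) and Fgf ligands (18.2%) came nearer to that of all genes. The 3553 genes include 1182 microRNA and 110 small nucleolar RNA entries. Since the kit primes on poly(A) tails, few counts there do not show that such RNA was absent. Of 1127 olfactory receptor genes, 1096 were at or under the floor in all 3 libraries and 1029 had a count of 0 in each, while 5 were expressed. Olfr976 was the highest at 17.2, 16.7 and 18.8 CPM, with an SD of 0.09 on the log2 scale, and Olfr288 was at 9.27, 10.1 and 7.23 CPM. Olfr1300-ps1, Olfr287 and Olfr1349 were at 3.82, 4.04 and 5.78 CPM, at 2.05, 2.07 and 1.68 CPM and at 1.74, 1.36 and 1.71 CPM. Vomeronasal receptors of type 1 had 0 of 209 genes expressed, and those of type 2 had 1 of 121, Vmn2r51 at 7.46, 8.26 and 15.4 CPM. Bitter taste receptors had 0 of 35 above the floor in any library and trace amine receptors 0 of 15 expressed.

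Several structural and secreted protein families of skin, liver and immune cells had no member at the threshold. None of 54 keratin-associated proteins, 43 beta defensins, 27 alpha defensins, 37 chemokines or 20 UDP-glucuronosyltransferases was expressed, although 5 of the chemokines were above the floor in all 3 libraries. Late cornified envelope proteins (21), alpha interferons (14) and caseins (5) were at 0 throughout, and of the 21 major urinary proteins 20 were at 0. Scanning the symbols themselves, 299 stems had 10 or more members, and 39 of them had no member expressed. In 9 none was above the floor in any library: Scgb, Lce, Mup, Klra, Esp, Ifna, Cypt, Hoxb and Mirlet (microRNA entries). Every member was expressed in 6 stems, Mcm, Sf, Chd, Cnot, Dock and Lsm.

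Where such families had an exception, it was steady across the libraries in some cases and not in others. Of 39 Hox genes the sole one expressed was Hoxa7 at 22.9, 28.4 and 21.6 CPM. Of 37 interleukins 5 were expressed, Il7 at 40.8, 37.6 and 95.0 CPM, Il34 at 7.70, 8.59 and 6.64 CPM, Il23r at 3.22, 4.22 and 2.37 CPM, Il23a at 1.74, 2.84 and 2.07 CPM and Il17f at 1.97, 2.07 and 1.42 CPM. Of 55 keratins 5 were expressed, led by Krt84 at 41.2, 42.2 and 47.5 CPM. Pregnancy-specific glycoproteins had 3 of 13, with Psg17 at 32.7, 31.3 and 9.20 CPM, and GABA receptor subunits 5 of 19, with Gabra3 at 30.6, 27.7 and 34.1 CPM. Hoxa7 and Krt84 stayed within 1.5-fold over the 3 libraries with TMM, whereas Il7 and Psg17 did not, and on plain totals Hoxa7 did not either.

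**Figure D3:**
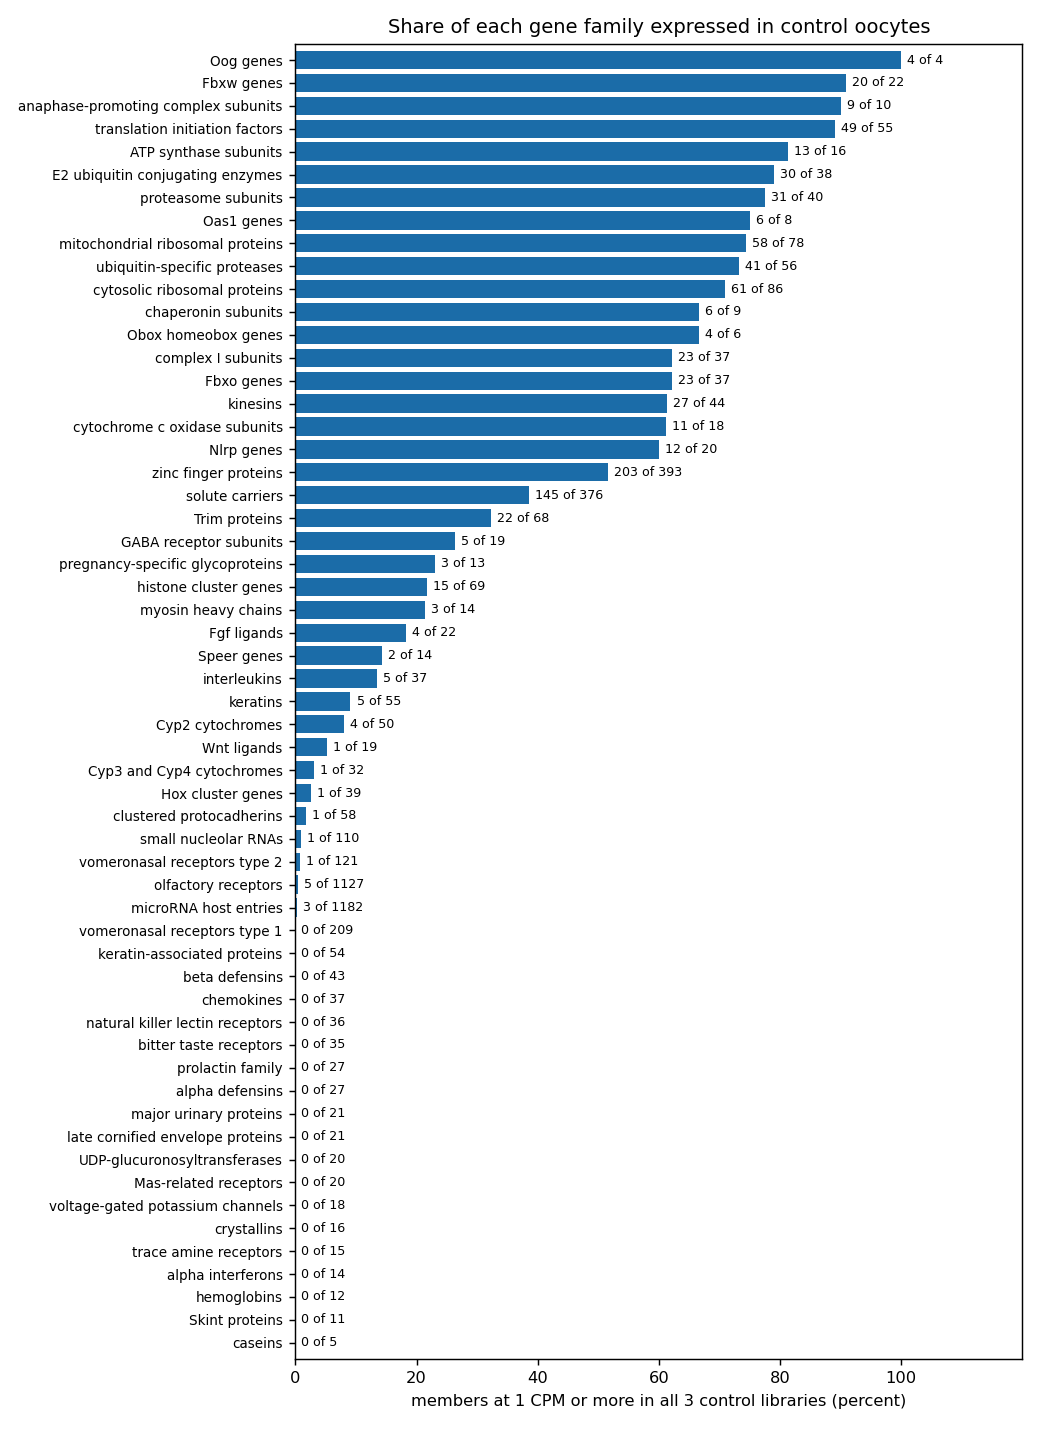
Percent of the measured members of each gene family that were at 1 CPM or more in all 3 control libraries, with the number of members written beside each bar. The families of egg genes and of general machinery fill the top, from Oog genes at 4 of 4, and 19 families at the bottom, among them vomeronasal receptors of type 1, have no member expressed.

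The families at the other end were those of the egg and of general machinery. All 4 Oog genes, 20 of 22 Fbxw genes, 6 of 8 Oas1 genes, 12 of 20 Nlrp genes and 4 of 6 Obox genes were expressed. So were 31 of 40 proteasome subunits, 49 of 55 translation initiation factors and 9 of 10 subunits of the anaphase-promoting complex. Cytosolic ribosomal proteins were expressed in 61 of 86 cases with a median over the family of 10.3 CPM, and the highest, Rpl4, was at 398, 207 and 297 CPM. Of 69 histone cluster genes, whose mRNA mostly lacks a poly(A) tail, 15 were expressed, led by Hist2h3b at 119, 46.5 and 102 CPM. MicroRNA entries were at 1 CPM or more in 3 of 1182 cases, and the tables held 0 mitochondrially encoded genes.

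Many genes high on the list are neighbours on a chromosome. Of the 99 placed genes among the first 100, 28 had another gene of the 100 within 1 Mb, against 8 to 23 per 100 in the next 9 blocks of 100 genes. The positions are those of RefSeq on GRCm38. On chromosome 9 Fbxw14, Fbxw28, Fbxw22, Fbxw19 and Fbxw24 lie within 355 kb (109270789 to 109626059), on chromosome 5 Oas1c, Oas1d and Oas1e within 135 kb (120786312 to 120921648), and on chromosome 7 Obox1, Obox2 and Obox5 within 370.4 kb (15388851 to 15759274). On chromosome 4 Gm13023, Gm13084, Oog3 and C87977 lie within 424 kb (143789334 to 144213017), and on chromosome 12 Oog1, Gm2042 and Gm10436 within 579 kb (87602665 to 88181894).

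Each cluster was lowest in the same library. The 5 Fbxw genes summed to 24175, 8200.4 and 14115 CPM, the 3 Oas1 genes to 23209, 7178 and 15632, the 3 Obox genes to 6814, 2420 and 7427, the 4 genes of chromosome 4 to 25712, 9712 and 24302, and the 3 genes around Oog1 to 22483, 7192 and 20882. That library was control 2, which was also lowest for 26 of the 30 highest genes with TMM and for 19 on plain totals. On plain library totals, without TMM, the same sums were again lowest in control 2, at 10443 against 21246 and 15025 for the Fbxw genes and 9159 against 19760.0 and 22229 for the genes around Oog1. Fbxw and Oas1 sums were highest in control 1, and Obox was highest in control 3 on both scales.

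Across the 8726 expressed genes the libraries were alike in rank. Pearson's r of log2 CPM was 0.982 for controls 1 and 2, 0.965 for controls 1 and 3 and 0.953 for controls 2 and 3, over genes, which are not independent replicates. More than 2-fold apart were 383 genes (4.39%) between controls 1 and 2, 787 (9.02%) between controls 1 and 3 and 936 (10.7%) between controls 2 and 3. The median SD of log2(CPM + 0.5) over the 3 libraries was 0.31, and the median coefficient of variation 22.9%. The common biological coefficient of variation fitted by edgeR was 0.377, and 0.295 without control 3.

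**Figure D4:**
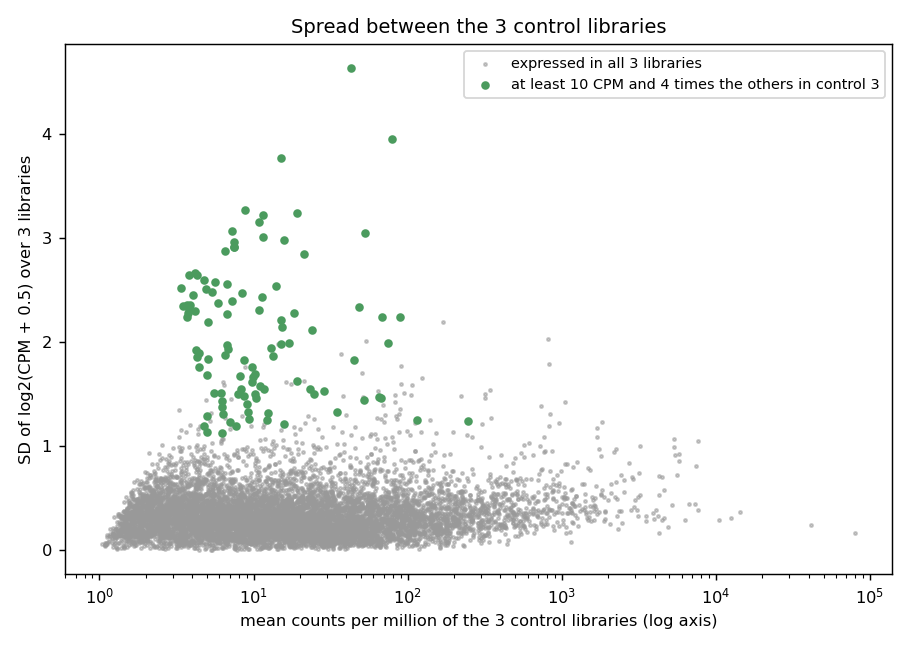
SD of log2(CPM + 0.5) over the 3 control libraries against mean CPM (log axis) for each expressed gene in grey, with the 103 genes that were at least 10 CPM and 4 times the other libraries in control 3 in green. Most genes lie under an SD of 1, and the green genes reach past 4.

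The 10 evenest genes above 100 CPM had varied roles. Brap, a ubiquitin ligase that binds BRCA1, was at 118, 119.6 and 117 CPM, with an SD of 0.02 on the log2 scale. Ndufa10, a subunit of respiratory complex I, was at 165, 160.2 and 161 CPM, Chaf1a, a histone chaperone of replication, at 105, 103 and 99.6 CPM and Rab3d, a vesicle GTPase, at 232, 237 and 221 CPM. Errfi1, Ccnl2, Fhod3, Brox and D1Ertd622e completed the 10 together with Espl1, and all 10 had SDs of at most 0.05. This rests on the scaling: on plain totals their SDs ran from 0.25 for Ndufa10 to 0.31 for Brox. At 100 CPM the counting error was 2.57%, 1.95% and 2.28%, which is close to the spread of these genes.

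The most uneven genes above 100 CPM moved mostly in the same order. Fam241b was at 187, 17.3 and 305 CPM, Smc4, a condensin subunit, at 901, 103 and 1443 CPM, and Top1, topoisomerase I, at 376, 76.3 and 500.4 CPM. The kinetochore genes Cenpf and Cenpe were at 105, 24.8 and 245 CPM and at 72.9, 24.2 and 221 CPM. Brca2, of recombination repair, was at 89.2, 25.3 and 199 CPM, Atrx, a chromatin remodeller, at 170.2, 56.2 and 441 CPM, and the paralogs Tcl1b5 and Tcl1b4 at 277, 79.8 and 671 CPM and at 349, 73.6 and 531 CPM. These 9 were all lowest in control 2 and highest in control 3 on either scale. Nfya, the DNA-binding subunit of the CCAAT factor NF-Y, ran the other way, at 1361, 972 and 136 CPM, with control 3 the lowest.

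Abundance itself went with the deviation of a library. Genes of 10 CPM or more in all 3 libraries were divided into 5 bins of equal size by mean CPM. In the highest bin the median log2 deviation from the mean of the 3 libraries was 0.31 in control 1, -0.24 in control 2 and -0.07 in control 3, and in the lowest bin it was -0.04, 0.09 and -0.04. On plain totals the highest bin was at 0.04, 0.03 and -0.06, and the lowest at -0.31, 0.35 and -0.04. Controls 1 and 2 therefore differed in how counts were divided between high and low genes on either scale, and the scale set at which end the difference appeared. Among the 30 highest genes, 24 were highest in control 1 with TMM and 9 on plain totals, and the median SD on the log2 scale was 0.41 with TMM and 0.30 on plain totals.

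**Figure D5:**
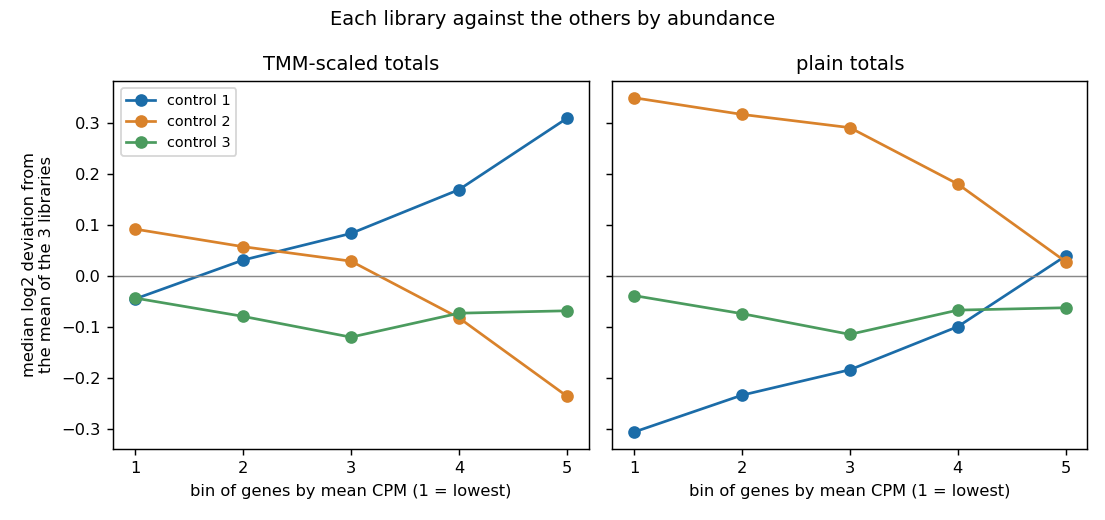
Median log2 deviation of each control library from the mean of the 3, in 5 bins of genes by mean CPM (914 or 915 genes each, bin 1 is the lowest), with TMM-scaled totals on the left and plain totals on the right. Control 1 rises and control 2 falls from the lowest to the highest bin in both panels, while control 3 stays between -0.12 and -0.04.

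The libraries also deviated with GC content. In 5 bins of genes by the GC percent of the transcript the median deviation of control 3 was 0.11 in the lowest bin and -0.23 in the highest with TMM, and 0.11 and -0.23 on plain totals. Control 1 was at 0.04 in the lowest bin and 0.19 in the highest with TMM, and at -0.23 and -0.08 on plain totals. Control 2 was at -0.13 and 0.02 with TMM, and at 0.13 and 0.28 on plain totals. By transcript length, control 2 was at -0.16 for the shortest bin and 0.03 for the longest with TMM, and at 0.10 and 0.30 on plain totals. The bins given for control 1 thus turned sign with the scaling. In control 2 the lowest GC bin and the shortest bin turned sign, while the highest GC bin and the longest bin stayed positive. Controls 1 and 2 rose from low to high GC on either scale. The part of GC content or length in the values of single genes was not tested.

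A gene was counted as standing apart in 1 library when it had at least 10 CPM there and at least 4 times the higher of the other two. Control 3 had 103 such genes (0.416% of 24736), and controls 1 and 2 had 0. Lower by the same measure, with both others at 10 CPM or more and at least 4 times the library, were 1 gene in control 1 (0.00404%), 13 in control 2 (0.0526%) and 6 in control 3 (0.0243%). The 103 genes held 0.495% of the counts of control 3, against 0.0430% in control 1 and 0.0732% in control 2. With 1 library against 2 this is a description with no test.

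The 103 genes were of several kinds. Cyp11a1, which makes pregnenolone from cholesterol, was at 0.479, 8.76 and 228 CPM, Star, which brings cholesterol into mitochondria, at 0.198, 2.07 and 54.9 CPM, and Hsd3b1, the next enzyme of steroid synthesis, at 0.215, 3.71 and 43.6 CPM. Akr1c18, which breaks down progesterone, was at 0, 0.0764 and 26.5 CPM, and Sfrp4 at 0, 0.821 and 31.9 CPM. Spp1, osteopontin, had a count of 0 in controls 1 and 2 and was at 45.5 CPM in control 3. Timp1, C3 and Lgals1 reached 12.4, 21.7 and 19.3 CPM there from under 1 CPM in the others. Kcng2, Mgst1, A930015D03Rik and Ctsl, also under 1 CPM in controls 1 and 2, reached 11.5, 10.1, 12.8 and 21.9 CPM in control 3. Ribosomal proteins made up 31 of the 103, which is 36% of the 86 in the family. Over the 61 expressed ribosomal proteins the median log2 ratio of control 3 to the mean of controls 1 and 2 was 1.65, against -0.10 over all expressed genes. The ferritin genes Ftl1 and Fth1 were at 14.2, 16.9 and 235 CPM and at 10.7, 13.1 and 179 CPM.

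Markers of other cells were counted beside these genes. Of 28 cumulus and granulosa markers, 8, 13 and 20 were above the floor in controls 1, 2 and 3, and 18, 13 and 2 were at 0, with summed levels of 745, 623 and 906 CPM. Serpine2 and Sdc1 made up most of the sum, at 494, 359 and 375 CPM and at 227, 223 and 155 CPM, and were not highest in control 3. Cyp11a1, Star and Hsd3b1, with values given above, are 3 of the 28 markers and stood apart in control 3, where Cyp11a1 reached 228 CPM. Markers of the expanded cumulus were near 0: in control 3 Tnfaip6 was at 1.94 CPM, Ptx3 at 1.77 and Has2 at 0.117, under the floor, and all 3 were at 0 in controls 1 and 2. Pgr and Areg were at 0 in all 3 libraries. Stroma and endothelium markers summed to 25.4, 35.6 and 84.6 CPM over 14 genes, with Dcn at 0.149, 0.420 and 16.3 CPM, Vim at 0, 0.382 and 14 CPM and Acta2 at 0.215, 0.115 and 10.7 CPM. Blood markers summed to 1.39, 2.31 and 12.0 CPM over 17 genes, and oviduct markers to 508, 424 and 298 CPM over 14 genes, most of it Cdh1. The number of oviduct markers above the floor nevertheless rose, at 7, 8 and 12. For stroma and endothelium it was 6, 10 and 13, and for blood 2, 3 and 6. The part of other cells in the genes that stood apart in control 3 was not tested, and in pooled RNA more cells of a type and more RNA per cell cannot be told apart. All 14 oocyte markers were expressed in every library, from Figla to Gdf9, and summed to 48521, 31934 and 34665 CPM.

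The other genes that stood apart in control 3 had varied roles. Ddx4, given above, was among them, and so were Usp46, a deubiquitinase, at 121, 107 and 507 CPM, Kif5b, a kinesin heavy chain, at 27.9, 21.9 and 145 CPM, Golga5, a Golgi protein, at 27.0, 24.3 and 151 CPM and Ndfip2 at 47.7, 59.5 and 239 CPM. These genes were present in all 3 libraries. Cphx1, a homeobox gene of the egg, had a count of 0 in controls 1 and 2 and was at 129 CPM in control 3, at least 651-fold higher against the floor of 12 counts per library. Its copy Cphx3 was at 129.9, 60.5 and 18.6 CPM, and Cphx2 was at 0 throughout, so the 3 copies summed to 130, 60.5 and 148 CPM. The sum was much more even than either gene. How the reads of the copies were divided was not tested.

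Malat1, a nuclear non-coding RNA, was counted in both directions, at 1.55, 17.5 and 139 CPM. The genes low in control 2 included Smc4, Cenpf, Top1, Fam241b and Tcl1b4, described above. Xaf1 and Slc7a14 had a count of 0 in control 2 and were at 42.8 and 21.2 CPM and at 24.1 and 12.2 CPM in controls 1 and 3. The genes low in control 3 were Arid5b, Dennd5a, Nfya, Prr18, St3gal5 and Stom. Arid5b was at 56.4, 52.7 and 0.924 CPM, and Prr18 was at 17.2, 24.7 and 0.0781 CPM, the last under the floor. Stom, stomatin, was at 519.8, 418 and 102 CPM.

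Presence at the floor also separated the libraries. Above the floor in a single library were 80 genes in control 1, 592 in control 2 and 1424 in control 3, and at or under it in a single library were 963, 123 and 198. The floor in CPM was highest in control 1, at 0.198.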

How the data were processed

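The authors deposited 1 table of expected counts per library, whole-number estimates of reads per gene that are not normalized. The tables name no unit, so it rests on the values and the tools listed. Per the submitters' processing notes, bcl2fastq 2.20, Trim Galore, HISAT2, StringTie and DESeq2 were used with GRCm38 (mm10); other settings are not given in the sources used here. Values of 4 were over-represented (401 genes in control 1, against 53 at 3 and 224 at 5), so a read pair was taken as 4 counts. The kit is unstranded, so overlapping and antisense genes cannot be told apart.

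CPM used TMM factors of edgeR 4.0.16 (R 4.3.3) from all 9 libraries, 0.879, 1.27 and 1.06 in control 1, 2 and 3. The dispersion was fitted to 11256 genes kept by filterByExpr in the 3 control libraries, and its code was tested on simulated data. Spread is the SD of log2(CPM + 0.5). Symbols matched RefSeq GRCm38.p6 for 24076 of 24736 genes (97.33%), and 550 more by synonym. Lengths are those of the longest basic transcript of GENCODE M21. No groups were compared, so there are no p-values. Each library is 1 mouse, so the spread is between mice and libraries together.

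Named are the 30 genes of highest CPM, the 20 highest per kilobase and the 10 most and least even of 100 CPM or more. Members of the lists and families, and the 10 genes of largest ratio in control 3, are also named. Others, among them Ddx4, Ftl1, Fth1, Usp46, Kif5b, Golga5, Ndfip2, Cphx2, Cphx3, Sfrp4, Malat1, Xaf1, Slc7a14, Arid5b, Prr18, St3gal5, Dennd5a, Stom and the genes of the clusters, were chosen after their values were seen. Members, lists and rules were chosen with earlier results of these data known. Alternatives were other scalings (plain totals, TMM of 3 libraries, DESeq2 1.42.0 size factors), thresholds, pseudocounts, transcript lengths, and leaving out Rn45s or each library.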

Additional observations from a re-analysis of the deposited data

How the results depend on the processing

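Of 84 alternatives for 12 results, 77 left the value within 1.5 times the main one (or 1 SD of it) and 7 moved it. Some of the 77 could not move it. The share of the 10 highest genes is taken within each library, so it is the same under every scaling. All 209 alternatives for the mean CPM of single genes stayed within 1 SD. For those that left out a library this was fixed in advance. Dropping 1 of 3 values cannot move their mean by 1 SD. A threshold of 10 CPM left 4581 expressed genes. Without Rn45s the 10 highest genes held 13.9% of counts. With no filter edgeR's common coefficient of variation was 0.798, and with counts divided by 4 it was 0.313. Counting genes above the floor in place of 1 CPM gave 88 expressed genes over the 35 families, against 45. The genes higher in control 3 numbered 54 at 8 times and 20 at 50 CPM, against 103. The median SD of the 30 highest genes ran from 0.20 to 0.45 on the log2 scale when a library was left out, and the low value is that without control 2 (this result was added after seeing the data). Those SDs are over the remaining libraries only and are not comparable with the SD over all 3.

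Leaving out a library gave 8857 to 9097 expressed genes, 124 to 142 genes that hold 50% of counts and a median SD over expressed genes of 0.22 to 0.28 on the log2 scale. These are SDs of 2 values, whose median runs lower than that of 3 values at the same spread. They are therefore not comparable with the main value. No paired analysis was possible because the control libraries are described alone and no groups are compared. With 3 libraries, an SD has 2 degrees of freedom, and a gene under 12 counts in a library cannot be told from absence. Leaving out a library cannot be applied to the genes that stand apart in 1 library, and leaves no test elsewhere.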
